A study of Mus musculus with 31 samples.

Results

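The hippocampus of the db/m control mice was described on its own, from 11 of the 31 libraries of the series, which were taken because their labels name them db/m. These mice were male C57BLKS/J littermates of the db/db mice and carried 1 Lepr db allele on that background. They were labelled as 3 months old and were fed regular chow ad libitum, and the hour of killing was not given in the sources used here. RNA of the hippocampus was sequenced from 1 library per mouse, and the values are FPKM, fragments per kilobase of transcript, scaled to the mapped fragments of the library. Mice are named by the replicate numbers of their labels, which pair nothing.

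The hippocampus holds pyramidal neurons in fields CA1 to CA3, granule neurons in the dentate gyrus, several classes of interneurons that release GABA, and glial and vascular cells. It borders on the choroid plexus, the white matter of the fimbria and corpus callosum, the thalamus and the neocortex, so a dissected piece can hold some of each. Neurons spend most of their energy on ion pumping and on the release of transmitter, and their RNA is rich in transcripts for energy metabolism, calcium signalling and synapses. In tissue RNA, fewer cells of a type and less RNA per cell cannot be told apart.

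Of 27094 loci in the table, 16674 had a mean of at least 1 FPKM over the 11 mice and were kept. Of these, 15001 carried 1 gene name, 1048 carried several and 625 carried none. The number of loci above 1 FPKM ran from 16242 to 16797 per mouse. Pearson's r of log2(FPKM + 1) between any pair of mice was 0.975 to 0.983 across loci, which are not independent replicates. Y-linked transcripts were present in each library, as labelled male: Eif2s3y, a translation factor gene of the Y chromosome, ran from 144 to 198 FPKM. The locus that Xist, the silencing RNA of the inactive X chromosome, shares with Jpx had 10.3 ± 2.63 FPKM. Lepr, the leptin receptor gene that is mutated in this strain, had 0.374 ± 0.160 FPKM (SD, n = 11). Means below are given with their SD over these 11 mice, and the coefficient of variation (CV) is the SD as a percent of the mean.

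A small number of loci made up most of the summed FPKM. The 10 highest loci held 20.2 ± 1.26% of it, the 100 highest 40.8 ± 1.1% and the 1000 highest 71.1 ± 0.504%. The 218 highest loci held 50% of the sum. The 30 loci of mitochondrial DNA held 14.2 ± 0.810%, with 12.5% in the lowest and 15.0% in the highest mouse.

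The highest locus was a mitochondrial one that joins the genes COX1, ND4 and ND4L of the respiratory chain. It ran from 75345 FPKM in mouse 1 to 93035 in mouse 11, with a mean of 85419 ± 5754. Aldoa, the aldolase of glycolysis, ran from 24937 to 31344 FPKM and had a mean of 28453 ± 1662. Chrm1, the M1 muscarinic acetylcholine receptor, had 17218 ± 2194 FPKM, with its lowest value of 12064 in mouse 11 and its highest of 19898 in mouse 3. Col19a1, a collagen chain, had nearly the same mean, 16328 FPKM, yet ran from 4379 in mouse 3 to 30949 in mouse 5. The remainder of the highest loci included further mitochondrial loci, Ttr, Gng3, Camk2b and Psd.

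Synaptic kinases and hippocampal calcium sensors stood near the top of the nuclear genes. Camk2b, a subunit of the kinase that triggers synaptic potentiation, had 10888 ± 2601 FPKM and ran from 7823 to 15258. Camk2a, its partner subunit, had 5913 ± 580.0 FPKM and ran from 5188 to 6901. The locus of Hpca, the calcium sensor hippocalcin, which carries another name as well, had 6043 ± 2160 FPKM. Mice 3, 5 and 8 lay between 9033 and 9161 FPKM for it and the other 8 lay between 3598 and 6581. Sst, the neuropeptide somatostatin of interneurons, had 4365 ± 754 FPKM.

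Neighbouring loci on chromosome 19 were frequent among the highest. Of the 100 loci with the highest means outside mitochondrial DNA, 99 could be placed on the genome (GRCm38.p6). Of these, 20 lay on chromosome 19, against 3.68% of all kept loci that could be placed. Among those 99, 24 lay within 200 kb of another. Of the next 100 loci by mean, 98 could be placed, 17 of them within 200 kb of another and 13 on chromosome 19. In later blocks of 100, down to rank 1000, 0 to 11 lay that near and 4 to 12 lay on chromosome 19. A run of 9 loci, Chrm1, Slc3a2, Stx5a, Nxf1, Tmem223, Polr2g, Gng3, Ubxn1 and Tut1, spanned chromosome 19 from 8664005 to 8966210. Their levels ran from 2152 to 17218 FPKM and their CVs from 3.36% to 25.6%. The locus given here as Stx5a carries 4 names, Wdr74 among them, so its level is not that of Stx5a alone. This run was picked out after its values were seen, and its cause was not tested.

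**Figure D1:**
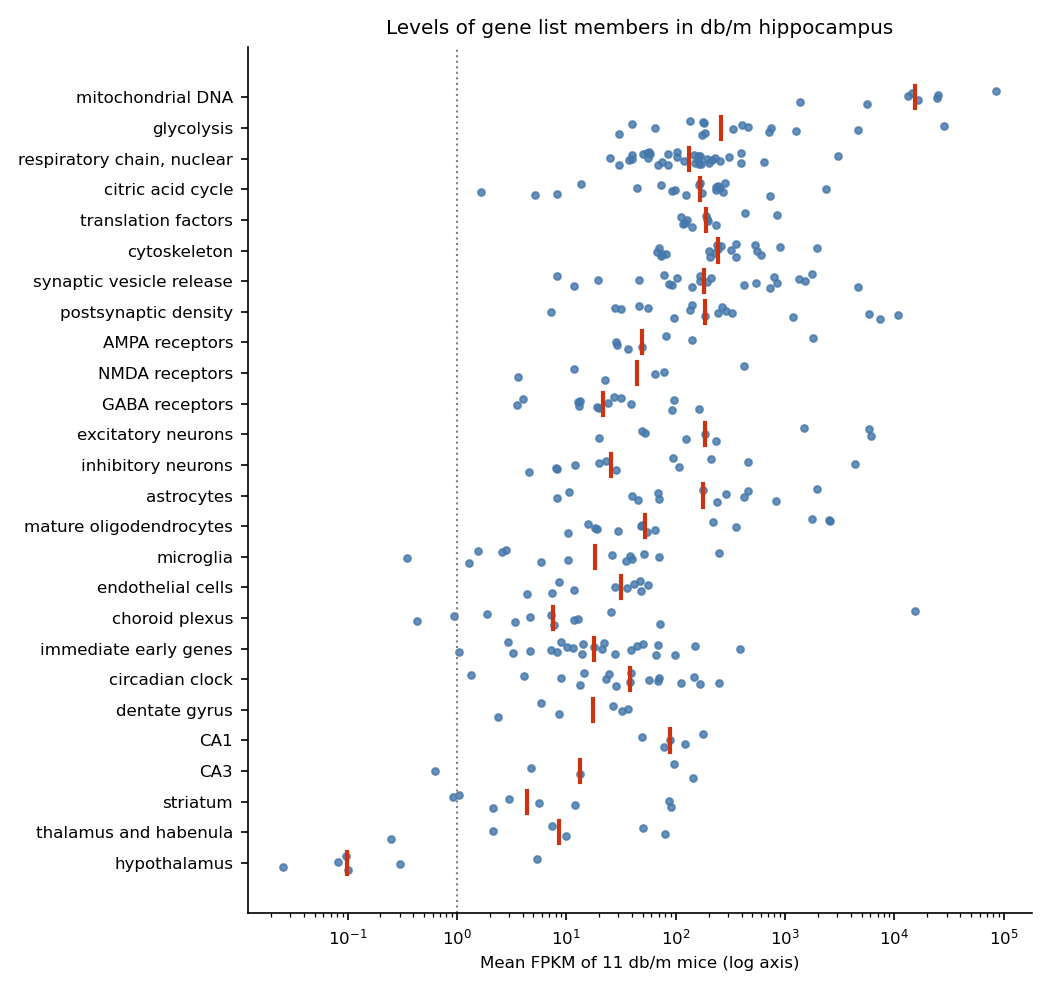
Mean FPKM over the 11 db/m mice (log axis) of each gene of 26 lists, with the list median as a red bar and a dotted line at 1 FPKM, the minimum used here. Mitochondrial DNA loci stand highest with a median of 15472 FPKM, and choroid plexus genes spread from under 1 FPKM to 15296 for Ttr.

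Lists of marker genes were described by cell type, and the levels above were not assigned to cell types. Of the 9 genes for excitatory neurons, the median level was 183.6 FPKM and the highest was that of the Hpca locus. Slc17a7, the vesicular glutamate transporter of these neurons, had 1482 ± 218 FPKM, with mouse 6 at 913 and the other 10 mice at 1272 to 1669. Neurod2 and Neurod6, transcription factors of forebrain excitatory neurons, had 48.8 ± 6.77 and 52.2 ± 7.50 FPKM. Both were lowest in mice 1 and 11. Their list had a median CV of 13.0%, and 7.37% with mice 1 and 11 both left out.

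The 12 genes for inhibitory neurons had a median level of 25.8 FPKM and a median CV of 17.0%. Gad2, an enzyme that makes GABA, had 211 ± 33.6 FPKM, and Gad1, its partner, 94.5 ± 8.14. Mouse 1 had the highest value of 7 of these 12 genes, with 283 FPKM for Gad2 against 174 to 244 in the others. The 19 neuropeptide and granin genes had a median level of 63.3 FPKM, and 18 of them were at or above 1 FPKM. Beside Sst, Pcsk1n, a granin-like protein of secretory granules, had 559 ± 45.2 FPKM and Npy, neuropeptide Y, 108 ± 16.9.

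Genes of all 4 hippocampal fields were expressed. The 5 genes for CA1 had a median level of 88.1 FPKM, the 5 for CA2 23.7, the 5 for CA3 13.5 and the 6 for the dentate gyrus 17.6. Wfs1, a protein of the endoplasmic reticulum that marks CA1, was 69.1 FPKM in mouse 5 and 64.1 in mouse 9, and 158 to 258 in the other 9 mice. C1ql2, a secreted synaptic organiser of granule cells, had 36.7 ± 8.02 FPKM.

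Genes of transmitter release were next. The 22 genes of vesicle release had a median level of 181 FPKM and a median CV of 9.99%, and 14 of them varied more than the median of the 500 loci nearest to them in level. Snap25, a SNARE protein of vesicle fusion, ran from 1644 to 1921 FPKM around 1770 ± 99.5. Rab3a, a small GTPase of vesicles, had 1510 ± 59.0 FPKM and a CV of 3.91%, and Syp, the vesicle protein synaptophysin, 1346 ± 57.5 FPKM and 4.27%. Cplx2, a complexin that clamps fusion, stood out from these. It was 2379 FPKM in mouse 3, 2434 in mouse 10 and 1021 in mouse 7, and 272 to 629 in the other 8 mice, for a CV of 95%.

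Receptors for glutamate were led by Gria2, the AMPA receptor subunit that limits calcium entry, at 1817 ± 105 FPKM (1574 to 2007). Grm5, a metabotropic glutamate receptor, had 486 ± 50.4 FPKM and Grin1, the obligate NMDA receptor subunit, 424 ± 41.3. Gria1, another AMPA receptor subunit, had 81.0 ± 10.5 FPKM. By list, the median level was 49.7 FPKM for 7 AMPA receptor genes, 43.9 for 6 NMDA receptor genes and 35.1 for 5 kainate receptor genes. The 14 GABA receptor genes had a median level of 21.8 FPKM, led by Gabbr1, a subunit of the GABA B receptor, at 165 ± 8.56 FPKM. The median CV of the AMPA receptor genes was 13.0%, and 8.25% with mice 1 and 11 both left out. For the kainate receptor genes it was 14.7% and 8.54%.

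Glial genes were led by myelin and by astrocytic transporters. Mobp, a protein of compact myelin, had 2582 ± 625 FPKM and Mbp, myelin basic protein, 1765 ± 372. In astrocytes, Slc1a2, the main glutamate transporter, was 508 FPKM in mouse 5, 218 in mouse 7 and 2134 to 2560 in the other 9 mice. Aldoc, the aldolase of astrocytes, had 462 ± 29.2 FPKM, and Gfap, their intermediate filament, ran from 255 to 331 around 288 ± 25.7. The 13 astrocyte genes had a median CV of 8.93%. Aqp4, the water channel of astrocyte endfeet, varied most of them (CV 66.8%), with 0.251 to 2.99 FPKM in mice 2, 4, 9 and 11 and 13.7 to 17.9 in the other 7. Mlc1, a membrane protein of endfeet, was 32.7 FPKM in mouse 7, 22.6 in mouse 11 and 72.6 to 87.6 in the others, and Slc4a4, a bicarbonate transporter, was 10.8 in mouse 8 and 39.8 to 55.3 in the others.

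Microglia, vessels and precursors gave lower levels. Csf1r, the growth factor receptor of microglia, had 247 FPKM (209 to 274), and C1qa, a complement chain they make, 51.6 ± 3.55. Of 14 microglial genes, 13 were at or above 1 FPKM, with a median CV of 9.40%, and Aif1 was at 0.346. Mouse 6 had the lowest value of 9 of the 13, and its Cx3cr1, the fractalkine receptor of microglia, was 0.362 FPKM against 1.73 to 3.79 in the others. Cldn5, a tight junction protein of brain endothelium, had 47.4 ± 7.19 FPKM. The 6 genes of oligodendrocyte precursors had a median level of 23.7 FPKM. Leukocyte genes were near the limit, with 2 of the 3 that had a locus above 1 FPKM and the highest at 1.95. Only Pomc of 6 hypothalamic genes had a mean of at least 1 FPKM. Avp had a mean of 0.304 FPKM but was 2.16 in mouse 11.

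Most nuclear genes of energy metabolism were both high and even between mice. The 20 genes of the citric acid cycle had a median level of 166 FPKM and a median CV of 4.45%, and 19 of the 20 lay below 11.2%, the median CV of all kept loci. Mdh2, the mitochondrial malate dehydrogenase, ran from 671 to 776 FPKM around 725 ± 30.1. Cs, citrate synthase, had 164 ± 6.44 FPKM and Dlst, a subunit of the oxoglutarate dehydrogenase complex, 98.1 ± 2.08. The exception was Suclg2, the GTP-forming succinyl-CoA ligase subunit, at 1.65 ± 0.749 FPKM, with 3.74 in mouse 6 and 1.05 to 2.02 in the others.

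The 34 nuclear genes of the respiratory chain had a median level of 133 FPKM and a median CV of 6.29%. Mouse 10 had the highest value of 17 of them, and mouse 7 had the lowest of 11. Ndufa4, a small subunit of the chain, had the highest mean, 3062 FPKM. The 8 loci that hold the 13 protein genes of mitochondrial DNA had a median CV of 7.78%, and mouse 7 was lowest for 6 of the 8.

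The 16 glycolysis genes had a median level of 259.7 FPKM and a median CV of 5.92%. Eno1, an enolase, had 1255 ± 49.3 FPKM and Pgk1, phosphoglycerate kinase, ran from 306 to 349 around 333 ± 14.5. Gapdh, the dehydrogenase of the pathway and a common reference gene, did not share this evenness. Its locus was 2.95 FPKM in mouse 2 and 2.21 in mouse 11, and 46.6 to 113 in the other 9 mice, for a CV of 59.9%.

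Housekeeping lists ranged more widely. The 11 translation factors had a median CV of 5.87%, the 19 cytoskeleton loci 8.01% and the 12 genes of ubiquitin and chaperones 11.4%, and these lists were not tested against each other. Of 16 genes used as references in quantitative PCR, 14 had a locus, with a median CV of 6.54%. Actb, cytoplasmic actin, had 353 ± 19.8 FPKM and a CV of 5.60%. Ribosomal protein genes, 77 of which were listed, were not analysed here.

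The spread between the 11 mice, which are not stated to share a litter, was small for most loci. The median CV was 11.2%, with 6.89% and 19.8% at the quartiles, and 7327 of the 16674 loci (43.9%) lay below 10%. A CV above 50% was found for 562 loci (3.37%). The spread depended on level. Median CV was 14.9% for 7840 loci at 1 to 10 FPKM, 9.03% at 10 to 100, 7.58% at 100 to 1000 and 7.57% for the 170 loci at 1000 or above. Among these 170, 5 had a CV above 50%.

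The 20 named genes with the lowest CV at 10 FPKM or more ranged over several functions. The locus of Ap3s2 and Arpin, an adaptor subunit of vesicle coats and an inhibitor of the Arp complex, had a CV of 1.49% at 29.6 FPKM. Psmd13, a regulatory subunit of the proteasome, had 1.53% at 23.0 FPKM, and Psmd2, another, 1.86% at 146. Prmt1, an arginine methyltransferase, had 1.57% at 15.6 FPKM. Rab11b and Rab7, GTPases of recycling and late endosomes, had 1.62% at 43.9 FPKM and 2.18% at 358. Dlst of the citric acid cycle was also in this group of 20, with 2.12%.

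**Figure D2:**
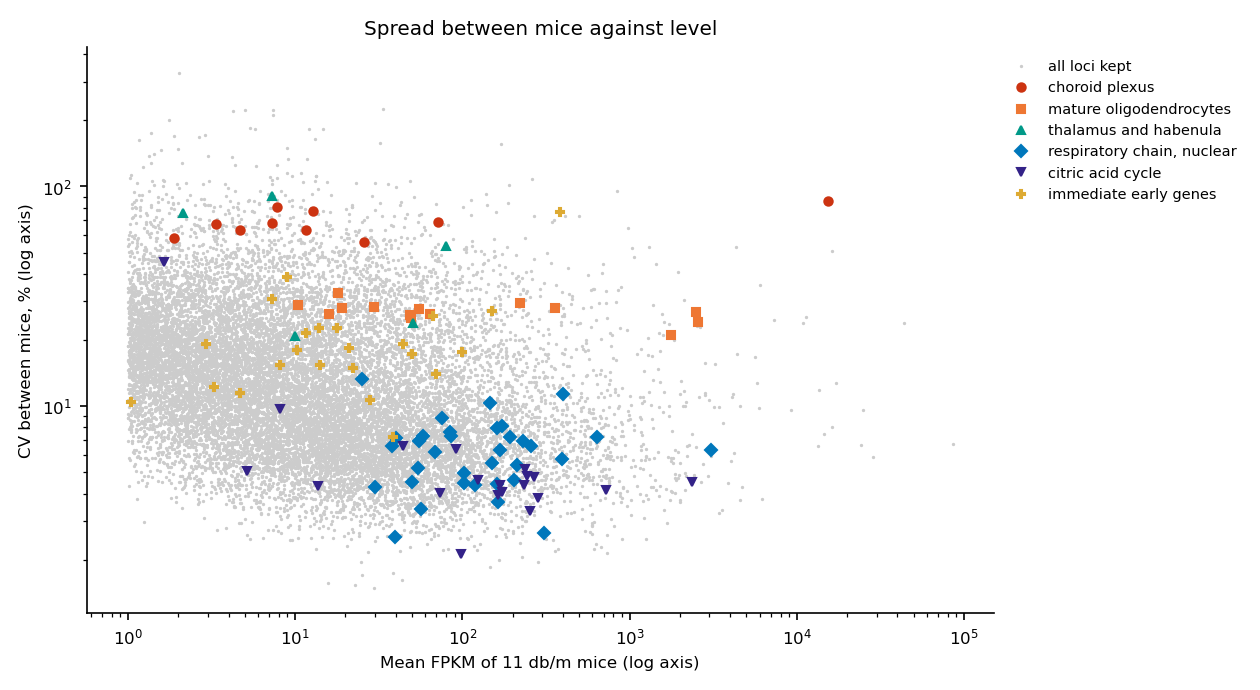
CV between the 11 db/m mice (percent, log axis) against mean FPKM (log axis) for the 16674 kept loci in grey, with 6 gene lists coloured. Citric acid cycle genes lie low, with a median of 4.45%, and the 10 choroid plexus genes lie between 55.7% and 85.9%.

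The 2 libraries that stood apart most often were those of mice 1 and 11. Of the 562 loci with a CV above 50%, mouse 1 had the highest value of 116 (20.6%) and mouse 11 of 89 (15.8%), while the other 9 mice had 27 to 54 each. With both left out, a choice made after seeing the data, the median CV of all kept loci was 10.2%. Values without them are given below where a list depended on them.

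Genes of the choroid plexus, the epithelium that makes cerebrospinal fluid, varied more than those of any other list with more than 1 kept locus. Ttr, transthyretin, the thyroxine carrier that this epithelium secretes, was 988 FPKM in mouse 1, 2175 in mouse 2, 6127 in mouse 3, 660.0 in mouse 7 and 1995 in mouse 10. It was 18552 FPKM in mouse 4, 28958 in mouse 5, 32960 in mouse 6, 26661 in mouse 8, 30120 in mouse 9 and 19060 in mouse 11. The 5 low mice and the 6 high ones did not meet, and the CV was 85.9% around a mean of 15296. All 10 kept genes of the list had a CV above 50% (median 68.0%, highest 85.9%), where 3.37% of all kept loci did.

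In 10 of 10 kept genes, mice 1, 2, 3, 7 and 10 all lay below each of the other 6 mice. F5, coagulation factor V, ran from 12.2 FPKM in mouse 7 to 132 in mice 5 and 6, with a median of 89.5. Kcnj13, a potassium channel of this epithelium, ran from 0.630 to 16.2 FPKM with a median of 9.77. Clic6, a chloride channel protein, ran from 4.61 in mouse 10 to 47.7 in mouse 8. The loci most like Ttr over the 11 mice by Pearson's r of log2(FPKM + 1) were Kcne2 (0.99), a potassium channel subunit, an unnamed locus (0.99), F5 (0.99), Kcnj13 (0.99) and 1500015O10Rik (0.98), a description drawn from 16674 loci.

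Genes of mature oligodendrocytes moved together. All 14 had a CV above the 11.2% median of all loci, and their own median was 27.3%. Mbp was 2413 FPKM in mouse 11, 1177 in mouse 10 and 1165 in mouse 6, with a median of 1768. Mog, a protein on the myelin surface, ran from 90.1 FPKM in mouse 10 to 314 in mouse 1. Cldn11, a tight junction protein of myelin, ran from 20.8 in mouse 10 to 66.6 in mouse 1. Mouse 10 was lowest for 12 of the 14 and mouse 6 for the other 2, while mouse 1 was highest for 7 and mouse 11 for 6. The median log2 ratio of the list to the 11-mouse median was -1.05 in mouse 10 and -0.50 in mouse 6, and 0.47 in mouse 1 and 0.36 in mouse 11.

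**Figure D3:**
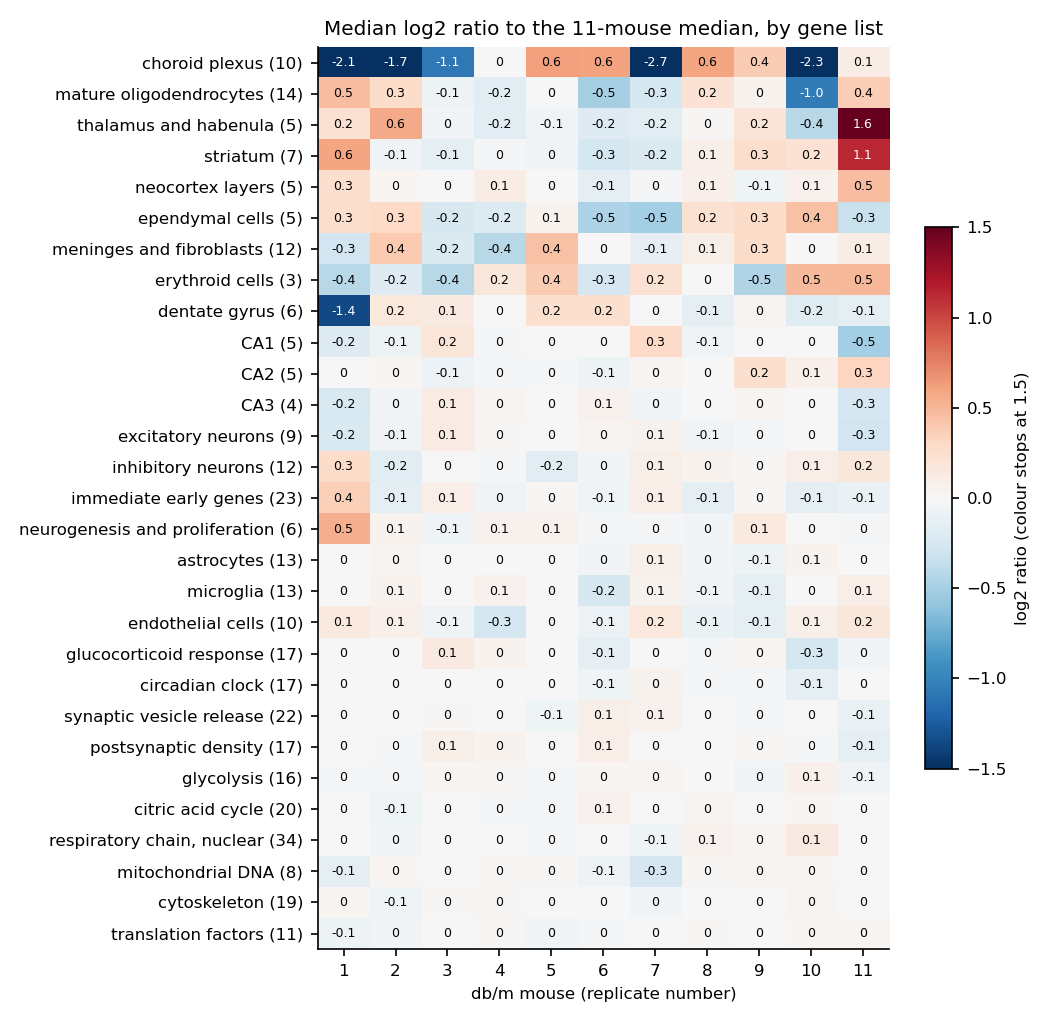
Median log2 ratio of each list's loci to their median over the 11 db/m mice, by mouse (columns) and list (rows, with the number of loci in brackets). Choroid plexus genes are low in mice 1, 2, 3, 7 and 10, oligodendrocyte genes are at -1.05 in mouse 10, and thalamic genes are at 1.59 in mouse 11.

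Most kept genes of regions around the hippocampus were highest in mouse 11. All 5 kept genes of the thalamus and habenula had their highest value there, with a median log2 ratio of 1.59. The other gene of that list, Gpr151, had a mean of only 0.250 FPKM. It was highest in mouse 2, at 0.986 FPKM, and was 0.169 in mouse 11. Tcf7l2, a transcription factor of thalamic neurons, was 26.4 FPKM in mouse 11, 11.4 in mouse 2 and 4.06 to 5.81 in the other 9. Ramp3, a receptor activity modifier of the thalamus, was 196 FPKM in mouse 11, 116 in mouse 2 and 49.2 to 87.2 in the others. The median CV of the list was 53.8%, and 29.8% without mouse 11.

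Of 7 kept genes of the striatum, 6 were highest in mouse 11 (median log2 ratio 1.13). Adora2a, an adenosine receptor, was 9.58 FPKM in mouse 11 and 1.46 to 4.66 in the others. Mouse 11 was also highest for 8 of 18 neuropeptide genes, with Tac1, the substance P precursor, at 258 FPKM against 77 to 152 and Penk, proenkephalin, at 73.7 against 21.2 to 43.0. Of 5 neocortical genes, 3 were highest in mouse 11. Rorb, a nuclear receptor of cortical layers, was 3.91 FPKM there and 57.1 to 75.5 elsewhere. The name Rorb lies on 5 loci, and these values are those of the highest. The median CV of the neocortical list was 31.4%, and 17.9% without mouse 11.

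In the same library the CA1 list was low, with a median log2 ratio of -0.51, and 3 of its 5 genes had their lowest value. The list for excitatory neurons was at -0.29. Mouse 11 also had the lowest value of 9 of the 22 vesicle release genes. Any link between these lower values and the higher thalamic and striatal genes was not tested.

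Genes of the dentate gyrus were lowest in mouse 1, for 6 of 6, with a median log2 ratio of -1.36. Dsp, desmoplakin, was 9.58 FPKM in mouse 1 and 20.7 to 34.8 in the others. C1ql2 was 16.8 FPKM there and 29.4 to 44.8 in the others. Prox1, the transcription factor that sets granule cell identity, was 0.644 FPKM in mouse 1, but also 1.1 in mouse 8 and 1.83 in mouse 6, and 6.32 to 9.17 in the other 8. The median CV of the list was 24.4%, and 15.4% without mouse 1.

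In mouse 1, 5 of 6 genes of neurogenesis and proliferation were highest. Dcx, doublecortin of young neurons, was 4.07 FPKM there and 1.90 to 3.00 in the others. Eomes, a factor of neural progenitors, was 3.25 FPKM there and 0.328 to 2.18 in the others. The median CV of the list was 17.8%, and 9.23% with mice 1 and 11 both left out.

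**Figure D4:**
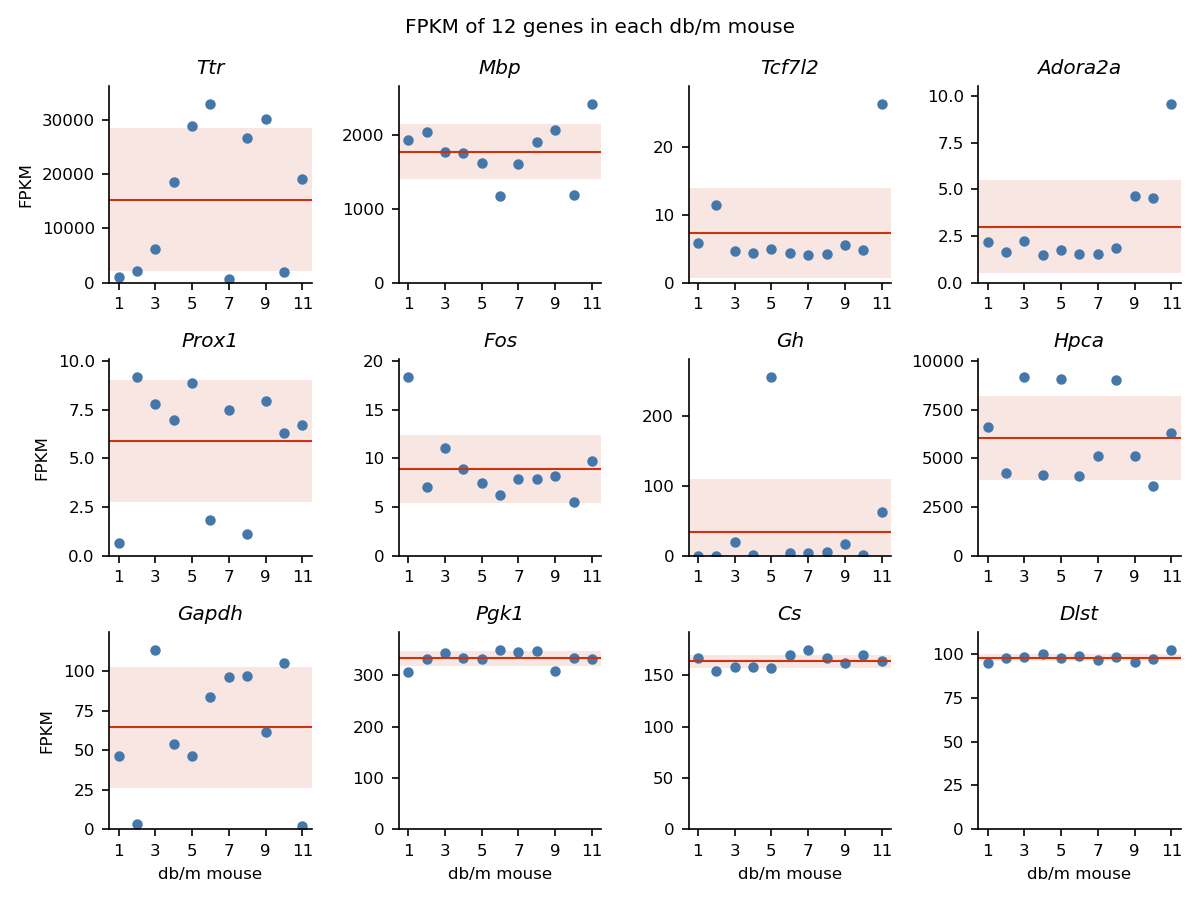
FPKM of 12 genes by mouse number, with the mean over the 11 db/m mice as a red line and 1 SD to each side as a band. Ttr splits mice 1, 2, 3, 7 and 10 from the rest, Tcf7l2 and Adora2a peak in mouse 11, Prox1 is low in mice 1, 6 and 8, and Pgk1, Cs and Dlst are nearly flat.

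Immediate early genes, which neurons switch on within minutes of activity, were next. Many of them are driven by the factor CREB, which binds cyclic AMP response elements. Their core letters TGACGT, searched on either strand (ACGTCA on the other), are in capitals in the 4 windows of 300 bases shown here, from 250 bases before to 50 after the start site in RefSeq (GRCm38.p6). They are shown because they hold the match among members that are described next. The Fos window is chr12:85473640-85473939 (plus strand) with a match at -66, and the Npas4 window is chr19:4989922-4990221 (minus strand) with matches at -180 and -169. The Egr4 window is chr6:85513540-85513839 (minus strand) with matches at -178 and -110, and the Dusp1 window is chr17:26508423-26508722 (minus strand) with matches at -191, -143 and -141, of which the last 2 overlap.
Fos: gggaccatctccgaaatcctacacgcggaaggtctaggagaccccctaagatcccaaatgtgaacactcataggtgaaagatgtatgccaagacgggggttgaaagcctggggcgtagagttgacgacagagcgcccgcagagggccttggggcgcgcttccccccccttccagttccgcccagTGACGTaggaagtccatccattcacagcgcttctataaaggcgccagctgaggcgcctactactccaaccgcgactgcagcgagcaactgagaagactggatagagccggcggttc
Npas4: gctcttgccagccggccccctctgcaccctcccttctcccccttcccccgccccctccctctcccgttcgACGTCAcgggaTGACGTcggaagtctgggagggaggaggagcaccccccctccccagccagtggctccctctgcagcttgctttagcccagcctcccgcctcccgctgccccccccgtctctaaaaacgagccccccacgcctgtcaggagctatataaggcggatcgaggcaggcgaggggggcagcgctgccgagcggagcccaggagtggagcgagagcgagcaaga
Egr4: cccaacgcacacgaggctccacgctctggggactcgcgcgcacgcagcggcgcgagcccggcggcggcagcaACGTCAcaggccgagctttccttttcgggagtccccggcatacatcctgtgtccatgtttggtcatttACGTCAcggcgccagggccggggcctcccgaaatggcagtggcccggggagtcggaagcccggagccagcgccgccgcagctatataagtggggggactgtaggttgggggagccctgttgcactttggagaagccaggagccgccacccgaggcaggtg
Dusp1: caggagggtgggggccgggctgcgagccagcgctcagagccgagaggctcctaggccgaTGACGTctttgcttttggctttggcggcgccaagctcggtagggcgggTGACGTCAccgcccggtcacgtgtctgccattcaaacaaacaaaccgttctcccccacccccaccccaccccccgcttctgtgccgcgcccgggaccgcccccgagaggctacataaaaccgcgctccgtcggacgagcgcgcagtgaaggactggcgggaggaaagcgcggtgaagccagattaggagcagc

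Of 17 listed genes of this group that had a window, 7 held the motif (41.2%), against 2263 of 27025 genes (8.37%), and of all 32851 windows 2468 (7.51%) held it. A match is a description of the letters in this window and not a bound site.

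The 23 genes of the group that were analysed had a median level of 17.9 FPKM and a median CV of 18.0%, and mouse 1 had the highest value of 14 of them. Fos, the activity-induced transcription factor, was 18.3 FPKM in mouse 1 and 5.55 to 11.0 in the others, with a median of 7.86. Its CV was 38.8%, and 20.1% without mouse 1. Arc, a regulator of AMPA receptor endocytosis, was 221 FPKM in mouse 1, 230.3 in mouse 3 and 117 to 166 in the other 9.

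Dusp1, a phosphatase of MAP kinases, was 12.9 FPKM in mouse 1 and 5.35 to 9.70 in the others. Egr4, a zinc finger factor, ran from 32.8 to 60.5 FPKM, and Npas4, a factor induced by calcium entry, from 8.13 to 13.6. Nr4a3, an orphan nuclear receptor, had the highest level of the group and its values were split. They were 624 to 735 FPKM in mice 1, 2, 5, 8 and 9 and 74.9 to 178 in the other 6. Among the loci most like Fos over the 11 mice were Dusp1 (r = 0.91), 1110018N20Rik (0.90), Nr6a1 (0.90) and Plk3 (0.89), again as a description drawn from 16674 loci.

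The 17 genes of the circadian clock had a median CV of 9.78%. Dbp, the clock output factor on a locus it shares with Car11, was 35.6 to 40.6 FPKM around 38.6 ± 1.90, a CV of 4.93%. Arntl, the activator that opposes it in phase, ran from 12.7 to 16.4 FPKM. Clock, the partner of Arntl, was 1.78 FPKM in mouse 1, 24.1 in mouse 10 and 42.3 to 48.4 in the others. Nr1d2, a repressor of the clock, was 110.0 to 116 FPKM in mice 1, 3, 4 and 9, 72.4 in mouse 10 and 33.7 to 45.0 in the other 6. The loci most like Dbp were Gltscr2 (0.90), Slc2a3 (0.88), the Cdk9 locus (0.88), Tbc1d22a (0.87) and an unnamed locus (0.86).

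The 17 kept glucocorticoid response genes had a median CV of 12.9%, and mouse 10 was lowest for 7. Fkbp5, a co-chaperone of the glucocorticoid receptor, was 20.4 to 26.5 FPKM in mice 1 to 5 and 9, and 4.28 to 7.30 in mice 6, 7, 8, 10 and 11. Sgk1, a kinase induced by glucocorticoids, did not show that division. It was lowest at 29.1 FPKM in mouse 10 and highest at 53.8 in mouse 4.

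Of the genes of interferon response and MHC class I, 11 of 15 were at or above 1 FPKM, with a median CV of 20.1%. Without mouse 2 this median was 8.94%. H2-K1, an MHC class I heavy chain, was 28.1 FPKM in mouse 2 and its mean was 18.0 ± 3.63, and B2m, the light chain, was 129.9 in mouse 2 around 102 on average.

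Among 30 named genes with the highest CV, several are best known from other tissues. Gh, growth hormone of the pituitary, was listed at 0 in mouse 1 and was 255 FPKM in mouse 5 and 62.7 in mouse 11, with a median of 4.03. Pomc, the precursor of corticotropin, was 33.6 FPKM in mouse 5, 9.47 in mouse 7 and 7.33 in mouse 9, with a median of 1.64. Myh4, a myosin heavy chain of fast muscle, was 78.5 FPKM in mouse 1 and 0 to 8.77 in the others. Barhl1, a homeobox factor of the hindbrain and diencephalon, was 15.1 FPKM in mouse 11 and 0.190 to 3.71 in the others. Trh, thyrotropin-releasing hormone, was 7.84 FPKM in mouse 1, 8.02 in mouse 11 and 0.271 to 1.63 in the others.

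Others of the 30 rested on few mice. Klhl10, a testis ubiquitin ligase adaptor, was 26.6 FPKM in mouse 10, 18.9 in mouse 11 and at most 0.169 in the others. Rassf2, a Ras effector, was 136 FPKM in mouse 5 and 134 in mouse 7.

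For 139 of the 16674 loci (0.834%) the 11 mice fell into separate levels, that is, a log2 gap wider than 2 had at least 2 mice to either side. This definition was chosen after values were seen. Of the 562 loci with a CV above 50%, 93 (16.5%) were split in this way. Gapdh and Slc1a2 were among them, with mice 2 and 11 low for Gapdh and mice 5 and 7 low for Slc1a2. Gabra4, a GABA A receptor subunit, was 14.4 FPKM in mouse 1, 16.7 in mouse 7 and 106 to 129 in the other 9. Grik3, a kainate receptor subunit, was 5.82 to 8.93 FPKM in mice 2, 8 and 10 and 38.9 to 61.7 in the other 8. The low mice differed between these genes, and the cause of the splits was not tested. Genes whose name lies on several loci, or on a locus with other genes, made up 31.3% of the loci with a CV above 50% and 29.8% of all kept loci.

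Pairs of genes that are known to work together were compared over the 11 mice as log2(FPKM + 1), with permutation p-values, 2-sided, adjusted by Benjamini-Hochberg over the 9 pairs tested. Of 14 pairs listed, 2 were not analysed and in 3 the mice fell into clusters, so no pooled r was given, and 1 pair that passed is not reported. The libraries were also divided here at the widest gap in a read-quality score. This gave technical sets of lower (mice 1 to 6) and higher (mice 7 to 11) read quality. Each r was also taken within the former and with the means of both removed. Hba-a1 and Hbb-bs, the haemoglobin chains, correlated (r = 0.93, permutation p = 1.5e-04, adjusted 4.5e-04, rho = 0.91, adjusted 0.00198), and r was 0.95 without mice 3 and 5, the 2 farthest from the median.

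Gad1 and Gad2, the enzymes of GABA synthesis, gave r = 0.94 (permutation p = 9.0e-05, adjusted 4.5e-04, rho = 0.85, adjusted 0.00588) and 0.87 without mice 1 and 2. C1qa and C1qb of the complement gave r = 0.87 (permutation p = 0.00428, adjusted 0.00963, rho = 0.73, adjusted 0.0317), yet r was 0.55 without mice 6 and 10, and without mouse 6 alone it was 0.54 (adjusted p = 0.158). So this relation rests on mouse 6.

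Fos and Arc gave r = 0.67 (permutation p = 0.0233, adjusted 0.0419), but rho was 0.19 (adjusted 0.613) and r was -0.11 without mice 1 and 3, so the relation rests on those mice. The remaining pairs did not pass: Fos and Junb gave r = 0.48 (permutation adjusted p = 0.203), Dbp and Arntl 0.39 (0.311), Slc17a7 and Mbp 0.30 (0.398) and Dbp and Per3 -0.04 (0.908). Within the 6 mice of the first read set r was 0.92 for the haemoglobins, 0.98 for Gad1 and Gad2, 0.96 for C1qa and C1qb and 0.76 for Fos and Arc. With set means removed it was 0.92, 0.93, 0.88 and 0.64. Both ways keep mice 1, 3 and 6, on which the relations of C1qa with C1qb and of Fos with Arc rest. They are therefore no check on those relations. Of the pairs that did not pass, Slc17a7 and Mbp gave 0.85 within those 6 mice, 0.29 with set means removed and -0.39 without mice 6 and 11, and Fos and Junb gave 0.81, 0.44 and, without mice 1 and 3, -0.31. Dbp and Arntl gave 0.28 within those 6 mice and 0.29 with set means removed, and Dbp and Per3 0.13 and 0.14. The set of mice 7 to 11 holds too few mice for its own r.

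**Figure D5:**
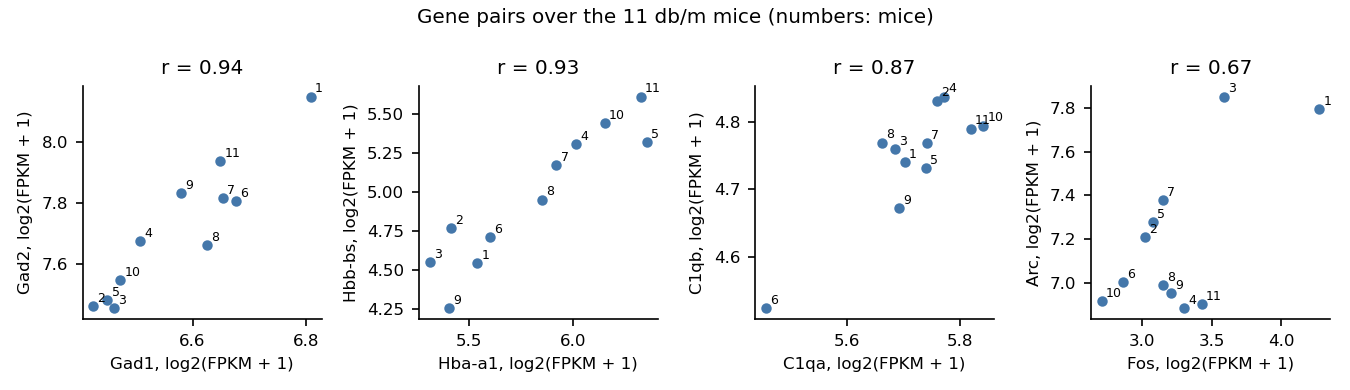
log2(FPKM + 1) of 4 gene pairs in the 11 db/m mice, each point labelled with its mouse number. Gad1 and Gad2, Hba-a1 and Hbb-bs, and C1qa and C1qb rise together with r of 0.94, 0.93 and 0.87, and Fos and Arc give 0.67 with mice 1 and 3 at the upper end.

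The sets of lower and higher read quality were compared for all loci with limma. Of 16752 loci tested, 3 (0.0179%) had a Benjamini-Hochberg adjusted p under 0.05, and 618 (3.69%) had an unadjusted p under 0.05. Of 469 list loci, 0 were called and 27 (5.76%) had an unadjusted p under 0.05, beside 3.69% of all loci. The locus called for Kcnj6, a G protein-gated potassium channel, had a mean of 187.5 FPKM in the lower set and 22.2 FPKM in the higher (log2 difference -2.96, SE 0.26, adjusted p = 0.00356), without overlap. The name Kcnj6 lies on 3 loci. The other 2 were predicted genes, Gm3839 (-1.03, adjusted p = 0.0058) and Gm9081 (-0.76, adjusted p = 0.0324). The labels give no more than a replicate number for each library, so these p-values measure only the spread between these libraries, which may be technical in part.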

How the data were processed

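Reads had been trimmed by the authors (Trimmomatic 0.38) and aligned to GRCm38.p6 (HISAT2), and transcripts assembled with StringTie 1.3.4d, merged over the 31 libraries. The deposited values are FPKM per locus and mouse, which the authors did not scale between mice. They hold no counts, so the depth and the counting error of a single value are unknown, and precision is that of the spread between mice.

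The 11 db/m columns were used, grouped by their labels, and no conditions were compared. Loci with a mean of at least 1 FPKM were ranked by mean and by CV. Genes with several loci were represented by the highest. The members and gene lists were chosen with earlier results of these data known. The text names the 30 named loci with the highest mean, the 30 with the highest CV on a single locus and the 20 with the lowest CV at 10 FPKM or more, up to 6 members of each list by level and 4 by CV, members of the pairs, and the 5 loci most like Fos, Dbp and Ttr. Any other gene was chosen with its values in view, among them Kcnj6 and the run on chromosome 19. Some genes taken by this rule, and 1 gene pair, were left out of the text.

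Correlations used 100000 permutations. The read-quality sets were cut at the widest gap between the mice in a quality score of the study's sequencing summary. They were compared on log2(FPKM + 1) with limma 3.58.1 in R 4.3.3, for loci above 1 FPKM in at least 5 mice. Tested on simulated data with 16752 loci, this fit recovered 71% of 100 loci shifted by 0.5 and 97% of 100 shifted by 1 on the log2 scale, with 10 false calls. The simulated noise was normal and independent between loci, and loci with the largest SD were kept out of the shifted ones. Recovery among the most variable or split loci was therefore not tested. Python 3.11.15, numpy 2.4.6, pandas 2.3.3, scipy 1.17.1 and matplotlib 3.10.9 were used. Other minimums, pseudocounts, normalizations, spread measures, sums over loci and each mouse left out were tried. Promoter windows are from RefSeq.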

Additional observations from a re-analysis of the deposited data

How the results depend on the processing

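No paired analysis was possible because the replicate numbers name single mice of 1 group and no groups were compared. The median CV of 11.2% was 9.29% at a minimum of 5 FPKM, 18.0% with no minimum, 9.49% from the SD of log2(FPKM + 1), 10.5% with loci summed by gene, and 10.2% without mice 1 and 11, chosen after seeing the data. With each mouse left out it was 10.8% to 11.4%. The number of loci with a CV above 50%, 562, was 311 at a minimum of 5 FPKM, 2990 with no minimum and 933 from the SD of log2(FPKM + 0.1), and 555 to 581 with each mouse left out. The share of the 10 highest loci, 20.2%, was 13.6% without mitochondrial loci, and that of the 100 highest, 40.8%, was 32.3%, with 19.99% to 20.4% and 40.7% to 41.0% when each mouse was left out. The limma comparison of read sets called 3 loci, 10 with no minimum, and 2 to 4 with each mouse left out. Of the pairs, 5 passed, and 3 passed without the 2 farthest mice and 3 to 6 with each mouse left out. Fos and Arc turned to r = -0.11 without mice 1 and 3 (permutation adjusted p = 0.78). Of 47 lists with a kept locus, 22 stayed on one side of the all-loci median CV under every alternative run. FPKM gives no depth, so low values carry an unknown counting error.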
